A study of Homo sapiens with 6 samples.

Results

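The kinesin and dynein motor genes are those whose annotated symbol begins KIF, KIFC, KLC, DYNC, DYNL or DCTN followed by the number or letter of a family member. These are the kinesin heavy chains, the kinesin light chains, the subunits of cytoplasmic dynein and the numbered subunits of dynactin. The rule found 70 genes with 105 probes, of 20046 genes on the array. Of these genes 50 were measured, meaning that at least 1 of their probes was detected (detection p under 0.05) on 3 or more of the 6 arrays, and 10734 genes were measured in all. RNA came from U2OS, an established human osteosarcoma cell line, collected 48 h after transfection. The miR-542-3p mimic group and the negative control mimic group had 3 arrays each. A mimic is a synthetic RNA duplex that stands in for a mature microRNA, so its level is set by transfection and not by the cell. Both groups were transfected, and untransfected cells were not analysed here. Biotin-labelled cRNA was hybridised to Illumina bead arrays, and the labels do not say whether the numbered samples came from separate cultures.

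Kinesins and cytoplasmic dynein are ATP-driven motors that step along microtubules, most kinesins toward the plus end and dynein toward the minus end. One set of kinesins builds the mitotic spindle, moves chromosomes and completes cytokinesis, and the genes of many of these motors are transcribed mainly in dividing cells. Another set carries vesicles, organelles and ciliary cargo in cells at every stage. Dynein, working with dynactin, carries cargo inward in interphase and also focuses spindle poles and pulls on chromosomes in mitosis. The comparison asked which of these motor transcripts differ when miR-542-3p is raised, and how mitotic and transport motors compare.

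Median signal was 132.2 to 151.4 per array, and 17848 to 18652 of 47323 probes were detected. Of 6 markers of mesenchymal and osteoblast cells, 5 were detected on at least 3 arrays and COL1A2 was not, while 3 of 5 epithelial markers were, and no leukocyte marker was. Among these markers EPCAM fell by 1.32 ± 0.19 (limma adjusted p = 0.00221), SPARC fell by 0.48 ± 0.14 (0.0405) and RUNX2 rose by 0.97 ± 0.16 (0.0041). BIRC5, which encodes the mitotic regulator survivin, fell by 3.28 ± 0.19 on the log2 scale (SE; limma adjusted p = 7.8e-05). The p53 target CDKN1A rose by 1.03 ± 0.16 (limma adjusted p = 0.00292). A much dimmer CDKN1A probe rose by 2.38 ± 0.13 (limma adjusted p = 7.29e-05), so the probes differ in size.

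All levels below are log2 of the background-corrected, quantile-normalized signal of a gene's brightest detected probe, with replicates 1, 2 and 3 of a group in that order. Changes are the mimic mean minus the control mean, with limma's standard error. A gene is said to have risen or fallen where limma's adjusted p over all rows was under 0.05. A level of about 5.5 is the dimmest that counted as detected. Probes differ in brightness, so levels are compared between arrays and not between genes. In RNA of whole cultures, fewer cells of a kind, such as cells in mitosis, and less RNA per cell cannot be told apart.

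Of the 50 measured motor genes, 9 fell, 7 rose and 34 did not pass the test. Over all measured genes 26.4% passed it, 13.7% as lower and 12.7% as higher, and the motor genes' shares of 18% lower and 14% higher lie near those. Their median change was -0.08, against 0.02 for all measured genes. Only KIF3B, KIF3C and DYNLT2B changed by at least 2-fold. The mimic arrays lay wholly below the control arrays for 10 members and wholly above for 12, where 22.1% and 23.0% of all measured genes did so, 45.0% together. The 16 members that passed the test are among these 22, and the others are KIF24 below and KIF1C, KLC2, DYNLT1, DCTN3 and DCTN6 above. When 1 array was left out the count of falls ranged between 5 and 11 and the count of rises between 4 and 7. The low count of falls came without mimic replicate 1, mimic replicate 3 or control replicate 3, and the high count without mimic replicate 2. For rises, 4 were left without mimic replicate 1 or control replicate 1.

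**Figure D1:**
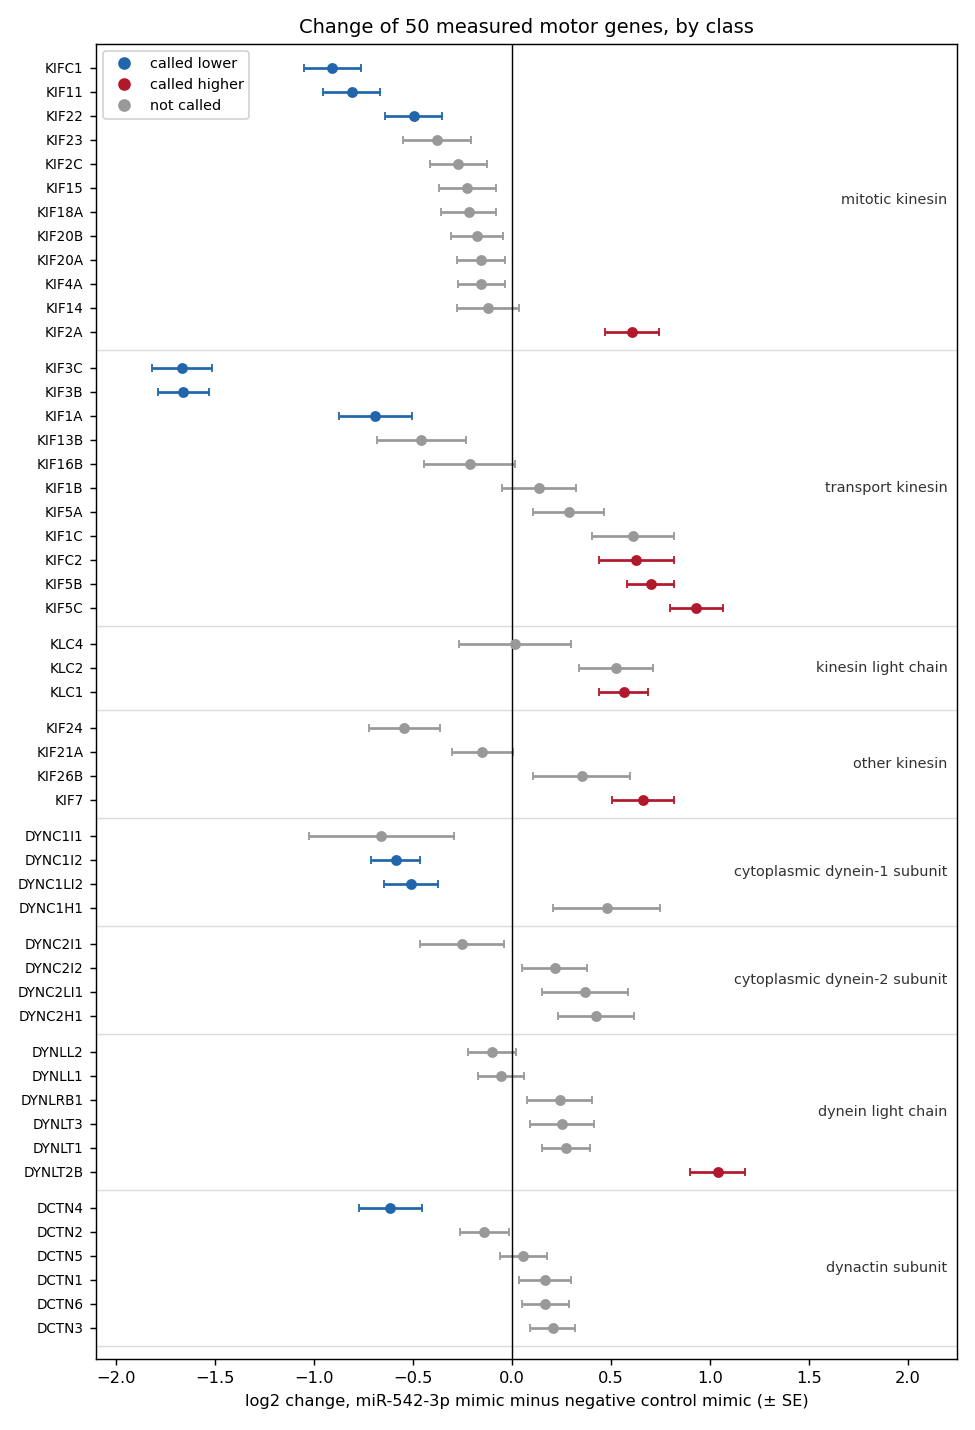
Each point is the log2 change of 1 of the 50 measured motor genes, mimic minus control, with its standard error, arranged by class and coloured by whether the gene passed the test. Mitotic kinesins lie mostly left of 0, with KIF2A to the right, while KIF3B and KIF3C lie near -1.7, apart from every other motor gene.

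Among mitotic kinesins, 12 of 14 genes were measured: 3 fell, 1 rose and 8 missed the threshold. These are 25% lower and 8.33% higher, where all measured genes had 13.7% and 12.7%. Their changes had a median of -0.22, and 11 of the 12 changes were below 0, against 5172 of 10734 over all measured genes. KIFC1, a minus-end-directed kinesin that bundles spindle microtubules and clusters surplus centrosomes in cancer cells, had 10.46, 10.74 and 10.30 on the mimic arrays and 11.34, 11.38 and 11.50 on the control arrays. It fell by 0.91 ± 0.15, or 1.87-fold (limma adjusted p = 0.00355), with all mimic arrays below all control arrays. KIF11, the Eg5 motor that slides spindle poles apart, had 8.62, 8.93 and 8.50 on the mimic arrays and 9.45, 9.50 and 9.53 on the control arrays. It fell by 0.81 ± 0.14, or 1.75-fold (limma adjusted p = 0.00539), and its second probe gave -0.80. Both genes passed the test in each of 19 alternative settings, the omission of any 1 array included. KIF22, a chromokinesin that pushes chromosome arms away from the poles, had 9.35, 9.76 and 9.41 on the mimic arrays against 9.97, 10.08 and 9.94 on the control arrays. KIF22 fell by 0.50 ± 0.14 (limma adjusted p = 0.0408), but this call was lost when any array other than mimic replicate 2 was left out (limma adjusted p up to 0.137).

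KIF2A was the 1 mitotic kinesin that rose. It encodes a microtubule depolymerase that acts at spindle poles and also trims microtubules in non-dividing cells. Its levels were 10.24, 10.08 and 10.32 on the mimic arrays and 9.49, 9.79 and 9.55 on the control arrays, with no overlap. The rise was 0.61 ± 0.14, or 1.52-fold (limma adjusted p = 0.0152), and it missed the threshold without mimic replicate 1 or 3 or control replicate 1 or 3 (up to 0.0639).

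The cytokinesis kinesins did not pass the test. KIF23, the motor of the centralspindlin complex of the spindle midzone, had 10.28, 10.64 and 10.05 on the mimic arrays and 10.75, 10.80 and 10.57 on the control arrays. Mimic replicate 2 overlapped the controls, and the change was -0.38 ± 0.17 with a 95% interval of -0.77 to 0.01 (limma adjusted p = 0.152). A much dimmer KIF23 probe gave 0.22, also not called, so the probes of this gene differ in sign. Without mimic replicate 2 the change of KIF23 was -0.54 and passed the test (limma adjusted p = 0.0391). KIF20A, which brings the chromosomal passenger complex to the midzone, had 10.38, 10.59 and 10.42 on the mimic arrays and 10.56, 10.67 and 10.62 on the control arrays. Its change was -0.15 ± 0.12 with a 95% interval of -0.43 to 0.12 (limma adjusted p = 0.404). The other 6 changes that missed the threshold were also below 0. They were -0.27 for the centromeric depolymerase KIF2C, -0.22 for KIF15, which assists KIF11, and -0.22 for KIF18A, which dampens chromosome movements. KIF20B and KIF14, both needed for cytokinesis, gave -0.18 and -0.12, and the midzone chromokinesin KIF4A gave -0.15.

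Mimic replicate 2 had the highest mimic level for 11 of the 12 mitotic kinesins, with KIF2A, which rose, the exception at its lowest. Over all measured genes mimic replicate 2 was the highest mimic array for 38.5%. Relative to each gene's control mean, the median over the mitotic kinesins was -0.38, -0.02 and -0.34 on the mimic arrays and -0.04, 0.04 and 0.00 on the control arrays. The median change of the class was -0.34 without mimic replicate 2 and -0.15 without mimic replicate 1. The median gap between the highest and lowest mimic array was 0.412 for these genes, against 0.128 among the control arrays, and 0.328 and 0.299 for all measured genes. Of 21 proliferation markers, 17 had their highest mimic level on the same array. What sets this array apart was not tested.

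**Figure D2:**
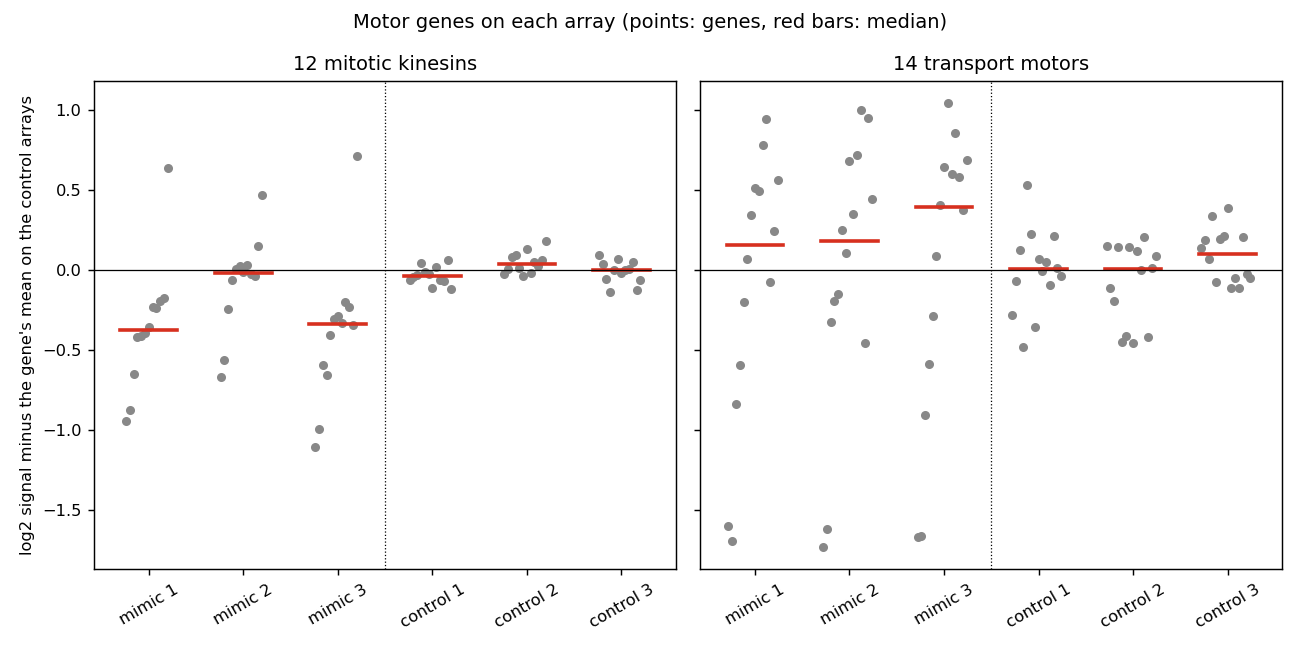
Points are genes on each array, mimic arrays left and control arrays right, as log2 signal minus the gene's mean on the control arrays, with the class median as a red bar. The mitotic kinesin median lies at -0.38 and -0.34 on mimic replicates 1 and 3 and at -0.02 on mimic replicate 2. The median of the transport motors (transport kinesins and light chains together) lies at 0.16, 0.18 and 0.39 on the mimic arrays. On the control arrays it lies at 0.00, 0.01 and 0.10.

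Upstream sequences of the 3 mitotic kinesins that fell are shown because the promoters of this class share short elements. The motifs searched on both strands were TTTGAA, the core of the cell cycle genes homology region (CHR) found near the start of many mitotic genes, its variant TTCGAA, and the CCAAT box. RefSeq promoters of build GRCh38.p14 hold 250 bases before and 50 after a listed start site, and 57 of the 70 motor genes had one. The first listed entry of each gene was used. Its start site was the start of the annotated gene for 51 of the 57 and lay inside the gene for 6, KIFC1 among them, where it was 362 bases downstream of the gene's start. The others were DYNLRB2 (259 bases), KIF24 (4403), KIF7 (7582), DYNC2I2 (27613) and KIF5C (72648). KIF5C is counted among the transport motors below from this distant window. TTTGAA was present in 9 of 14 mitotic kinesin promoters and in 1 of 13 promoters of transport motors, against 15.4% of all 27305 promoters and 9.81% of the 8698 that belong to measured genes. CCAAT was present in 10 of 14 and 3 of 13, against 35.7% and 37.5%. TTTGAA and CCAAT occurred together in 8 of 14 and 1 of 13, against 6.08% and 4.41%. TTCGAA was present in KIF22 alone of the mitotic kinesins and in 1.45% of all promoters. TTTGAA was not confined to the kinesins that fell. It was also present in KIF14, KIF15, KIF18A, KIF20B, KIF23 and KIF4A, which did not pass the test, and in KIF4B, which was not measured. KIF2A, which rose, had none of these motifs, nor did KIF2C, which did not pass the test. Whether a motif goes with a fall was not tested. A match describes the letters in this window and no more. The sequences run 5′ to 3′ on the gene's strand, and capitals mark the motifs. On this strand TTTGAA can also read TTCAAA, and CCAAT can also read ATTGG. KIFC1 is chr6:33391573-33391872 (plus strand), KIF11 is chr10:92592880-92593179 (plus strand) and KIF22 is chr16:29790501-29790800 (plus strand).
KIFC1: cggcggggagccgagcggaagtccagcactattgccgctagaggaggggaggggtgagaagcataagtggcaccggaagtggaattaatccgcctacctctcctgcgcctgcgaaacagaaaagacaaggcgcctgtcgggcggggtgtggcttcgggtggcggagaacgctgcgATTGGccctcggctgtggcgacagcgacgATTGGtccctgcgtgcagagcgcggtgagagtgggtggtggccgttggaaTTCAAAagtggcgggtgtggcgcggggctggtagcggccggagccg
KIF11: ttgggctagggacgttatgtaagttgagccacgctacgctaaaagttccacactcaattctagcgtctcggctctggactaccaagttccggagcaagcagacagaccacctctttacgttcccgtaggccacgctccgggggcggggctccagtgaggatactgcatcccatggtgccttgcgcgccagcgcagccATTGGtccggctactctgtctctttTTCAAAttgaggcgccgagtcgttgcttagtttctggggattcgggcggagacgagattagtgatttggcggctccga
KIF22: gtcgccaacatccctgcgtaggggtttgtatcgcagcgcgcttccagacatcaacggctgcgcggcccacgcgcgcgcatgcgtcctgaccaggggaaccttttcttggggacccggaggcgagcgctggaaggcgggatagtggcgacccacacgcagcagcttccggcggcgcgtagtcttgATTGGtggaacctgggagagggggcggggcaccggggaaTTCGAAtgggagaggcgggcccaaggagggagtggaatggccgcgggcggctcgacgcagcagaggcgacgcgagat
In KIF11 the CHR match starts at -28, counted in bases from the window's start site, and the CCAAT match at -53. In KIF22 the variant lies at -27 and CCAAT at -66. In KIFC1 the CHR match is at 5, after the window's start site, and the CCAAT matches are at -75 and -46.

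Transport kinesins and the kinesin light chains moved in both directions. Of 19 genes 14 were measured: 3 fell, 4 rose and 7 did not pass the test, with a median change of 0.21. That is 21.4% lower and 28.6% higher, against 13.7% and 12.7% of all measured genes. The 11 measured transport kinesins alone had 3 falls, 3 rises and a median change of 0.14. The 3 measured light chains had a median change of 0.52. Both kinesin-2 heavy chains that were measured fell more than any other motor gene on the corrected scale, and 2 kinesin-1 heavy chains and a kinesin-1 light chain rose. The per-array medians of kinesins and light chains together, relative to the control mean, were 0.16, 0.18 and 0.39 on the mimic arrays. On the control arrays they were 0.00, 0.01 and 0.10. For the transport kinesins alone they were 0.07, 0.11 and 0.09 on the mimic arrays and -0.01, 0.00 and 0.13 on the control arrays. Control replicate 3 thus lay above every mimic array. The median change of kinesins and light chains together was 0.52 over the genes detected on all 6 arrays and 0.09 with no background correction. Without control replicate 1, 2 of the 4 rises were left. The difference between the mitotic and the transport medians was not tested.

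KIF3B is a heavy chain of heterotrimeric kinesin-2, which carries cargo along cilia and in the cytoplasm. Its levels were 8.33, 8.40 and 8.36 on the mimic arrays and 9.95, 9.91 and 10.21 on the control arrays. It fell by 1.66 ± 0.13, or 3.16-fold (limma adjusted p = 1.93e-04), a gap many times the spread within either group. The second probe of KIF3B gave -1.67. On the deposited intensity scale its bright probe read 446.3, 433.9 and 431.7 on the mimic arrays and 1128.7, 1049.4 and 1367.4 on the control arrays, so the groups did not overlap before any correction either.

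KIF3C, a kinesin-2 chain best known from neurons that pairs with KIF3A, had 6.16, 6.03 and 6.09 on the mimic arrays against 7.48, 7.91 and 7.90 on the control arrays. It fell by 1.67 ± 0.15, or 3.17-fold (limma adjusted p = 3.3e-04). The change of KIF3C was -0.86 with no background correction, still past the threshold and equal to that of KIFC1 there at 2 decimals. Their partner KIF3A was detected on 2 mimic arrays and on no control array and was not tested, with levels of 5.18, 6.10 and 5.55 on the mimic arrays and 4.92, 4.96 and 4.89 on the control arrays. KIFAP3, the accessory subunit that joins the kinesin-2 pair to cargo, changed by 0.11 ± 0.13 (limma adjusted p = 0.564).

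Of 6 measured kinesin-1 genes, 3 rose and 3 did not pass the test. KIF5B, the heavy chain of conventional kinesin in most tissues, had 10.89, 10.82 and 10.70 on the mimic arrays against 10.15, 10.10 and 10.05 on the control arrays. It rose by 0.70 ± 0.12, or 1.62-fold (limma adjusted p = 0.00436). KIF5C, a heavy chain best known from neurons, had 6.94, 6.99 and 6.85 on the mimic arrays against 5.90, 6.20 and 5.88 on the control arrays, and rose by 0.93 ± 0.13, or 1.91-fold (limma adjusted p = 0.00222). Without background correction the change of KIF5C was 0.41, still past the threshold. KLC1, a light chain that couples kinesin-1 to cargo, had 9.23, 9.11 and 9.36 on the mimic arrays against 8.63, 8.76 and 8.62 on the control arrays. It rose by 0.56 ± 0.12, or 1.48-fold (limma adjusted p = 0.0138), its second probe gave 0.63, and without control replicate 1 the adjusted p was 0.0554. The other measured kinesin-1 genes had changes of 0.29 for KIF5A, 0.52 for KLC2 and 0.02 for KLC4, none past the threshold, and KLC2 was higher on all mimic arrays than on any control array.

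The promoters of KIF3B and KIF5B are given because these genes lead the falls and the rises among transport motors on bright, well-measured probes. They come from the same RefSeq table, with the same motifs in capitals. KIF3B is chr20:32277401-32277700 (plus strand) and KIF5B is chr10:32056376-32056675 (minus strand).
KIF3B: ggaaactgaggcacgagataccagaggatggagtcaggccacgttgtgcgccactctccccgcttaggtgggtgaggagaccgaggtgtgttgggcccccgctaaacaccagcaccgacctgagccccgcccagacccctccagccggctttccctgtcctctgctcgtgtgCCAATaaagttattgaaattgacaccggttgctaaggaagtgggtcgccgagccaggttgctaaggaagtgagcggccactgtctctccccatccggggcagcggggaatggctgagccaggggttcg
KIF5B: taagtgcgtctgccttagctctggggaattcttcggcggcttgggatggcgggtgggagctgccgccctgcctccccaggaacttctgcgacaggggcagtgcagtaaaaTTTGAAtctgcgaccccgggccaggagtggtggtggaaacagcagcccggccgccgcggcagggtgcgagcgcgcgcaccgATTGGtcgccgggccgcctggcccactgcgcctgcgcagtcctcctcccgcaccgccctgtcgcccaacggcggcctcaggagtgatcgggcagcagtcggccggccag
KIF3B has a CCAAT match at -78 and neither TTTGAA nor TTCGAA in this window, while KIF5B, the 1 transport motor with TTTGAA, has it at -140 and CCAAT at -59.

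The remaining transport kinesins changed by less than KIF3B and KIF3C. KIF1A, which carries synaptic vesicle precursors in neurons, had 6.44, 6.95 and 6.37 on the mimic arrays against 7.40, 7.09 and 7.35 on the control arrays. It fell by 0.69 ± 0.18 (limma adjusted p = 0.0283), missed the threshold without mimic replicate 1 or 3 or control replicate 1 or 3 (up to 0.0961), and changed by -0.35 with no background correction. KIFC2, a minus-end-directed motor of the kinesin-14 family, had 8.58, 8.44 and 9.13 on the mimic arrays against 8.08, 8.21 and 7.98 on the control arrays. It rose by 0.63 ± 0.19 (limma adjusted p = 0.0465), and any omission other than that of mimic replicate 2 ended the call (up to 0.131). The call was also lost with cyclic loess normalization and with no filter on dim probes. The remaining 4 changes missed the threshold. They were 0.61 for KIF1C, 0.14 for the mitochondrial motor KIF1B, whose 3 detected probes differ in sign, -0.46 for KIF13B and -0.21 for the endosomal motor KIF16B. KIF1C lay higher on every mimic array than on any control array (limma adjusted p = 0.0685).

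Of 12 kinesins outside these classes 4 were measured, and KIF7 rose. KIF7, which acts at the tip of the primary cilium in Hedgehog signalling, had 7.88, 7.87 and 8.02 on the mimic arrays against 7.35, 7.47 and 6.96 on the control arrays. The rise was 0.66 ± 0.16, or 1.58-fold (limma adjusted p = 0.0188). It missed the threshold without mimic replicate 1 or 3 (up to 0.0608) and was 0.41 with no background correction. KIF24, which restrains cilium formation, had a change of -0.54 and lower levels on all mimic arrays (limma adjusted p = 0.0629). KIF24 passed the test in 7 of 19 alternatives, without mimic replicate 2 among them (-0.67, limma adjusted p = 0.0361). The changes of KIF21A and KIF26B were -0.15 and 0.35, and KIF26B was detected on 3 mimic arrays but on only 1 control array.

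**Figure D3:**
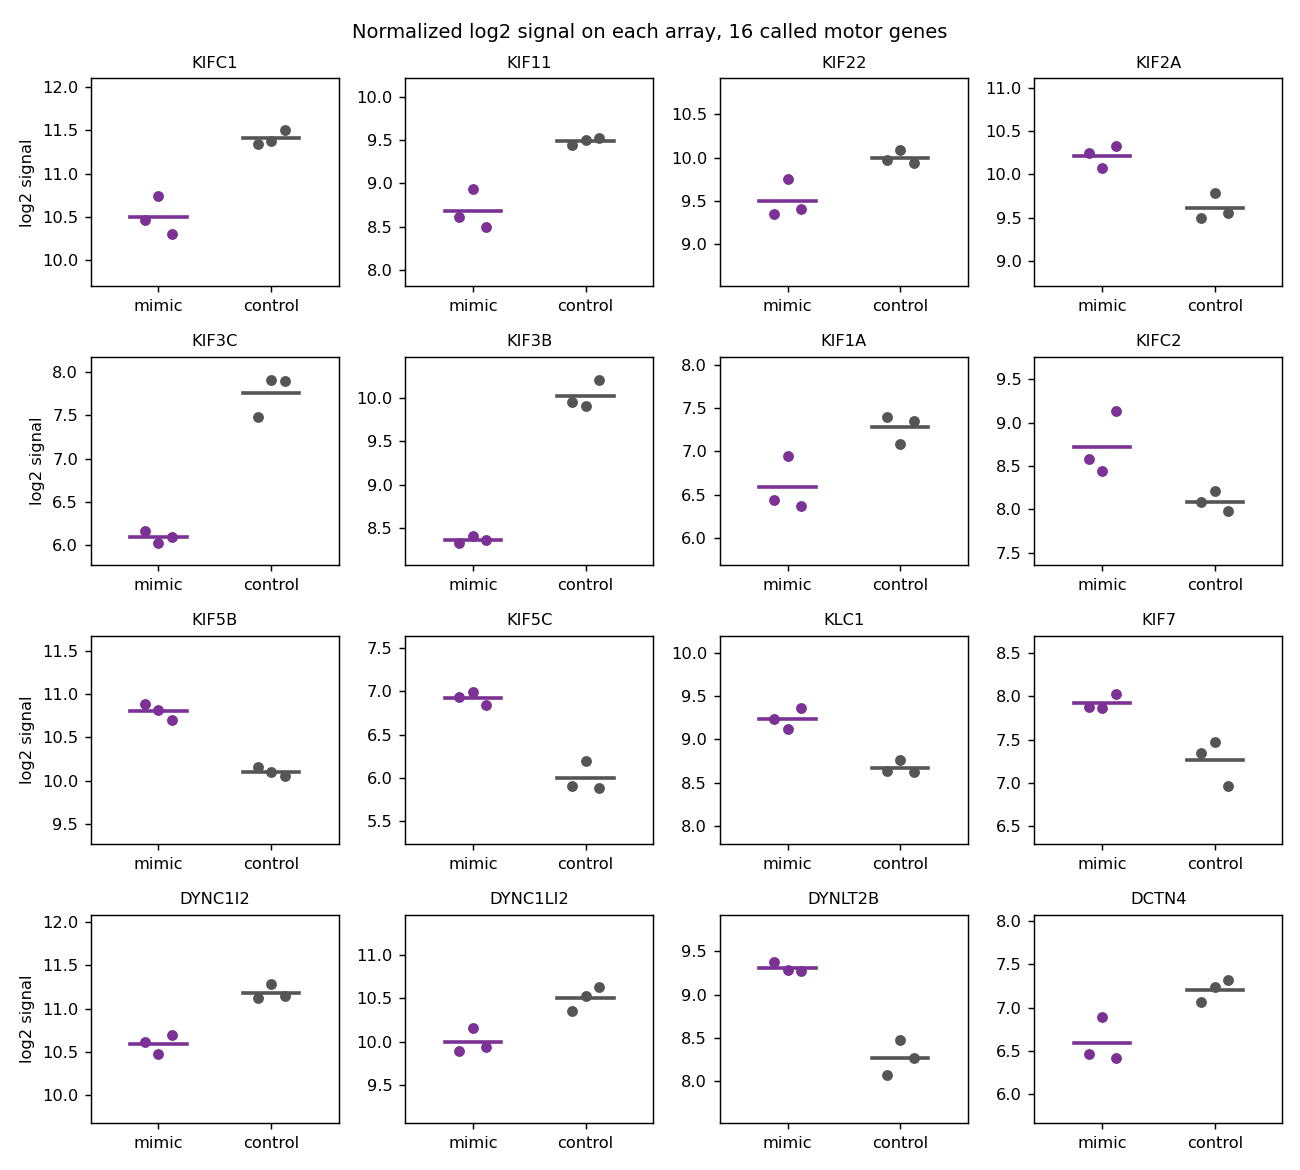
Normalized log2 signal on each array for the 16 motor genes that passed the test, mimic arrays left and control arrays right in each panel, with a panel per gene and its own axis range. No panel has overlapping groups, and the widest gaps are those of KIF3B and KIF3C.

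Dynein and dynactin had 25 genes, of which 20 were measured: 3 fell, 1 rose and 16 did not pass the test, with a median change of 0.17. The shares, 15% lower and 5% higher, lie near or below the 13.7% and 12.7% of all measured genes. Of 4 measured subunits of cytoplasmic dynein-1, the main dynein of the cytoplasm, 2 fell, DYNC1I2 and DYNC1LI2. Both belong to the chains that link the motor to dynactin and cargo, as does DYNC1I1, which did not pass the test. The intermediate chain DYNC1I2 had 10.62, 10.47 and 10.70 on the mimic arrays against 11.12, 11.29 and 11.14 on the control arrays. It fell by 0.59 ± 0.12, or 1.50-fold (limma adjusted p = 0.0118), and stayed past 0.05 when any 1 array was left out. The light intermediate chain DYNC1LI2 had 9.89, 10.15 and 9.94 on the mimic arrays against 10.36, 10.53 and 10.63 on the control arrays. It fell by 0.51 ± 0.13, or 1.42-fold (limma adjusted p = 0.0282), and missed the threshold without mimic replicate 1 or 3 or control replicate 2 or 3 (up to 0.0992). The heavy chain DYNC1H1, which is the motor itself, had 9.95, 10.17 and 9.81 on the mimic arrays and 9.54, 8.90 and 10.05 on the control arrays. Its control arrays spread widely, and its change of 0.48 ± 0.27 did not pass the test (limma adjusted p = 0.242). Omission of control replicate 2 gave 0.18 for DYNC1H1, and omission of control replicate 3 gave 0.76, neither past the threshold. The second intermediate chain DYNC1I1 gave -0.66 ± 0.37 with overlapping arrays (limma adjusted p = 0.236).

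DCTN4, a subunit of the pointed-end complex of dynactin, had 6.47, 6.90 and 6.42 on the mimic arrays against 7.07, 7.23 and 7.32 on the control arrays. It fell by 0.61 ± 0.16 (limma adjusted p = 0.0277), a call lost on omission of any array except mimic replicate 2 (up to 0.0935), and its change was -0.31 with no background correction. Other dynactin subunits under the rule had changes of -0.14 for DCTN2 (dynamitin), 0.06 for DCTN5, 0.17 for DCTN6 and 0.21 for DCTN3, none past the threshold. DCTN1, the large p150Glued subunit that binds microtubules, gave 0.17 ± 0.13 (limma adjusted p = 0.402). Of the dynactin subunits with other symbols, ACTR10, CAPZA1, CAPZA2 and CAPZB were measured, with a median change of 0.11 and limma adjusted p between 0.215 and 0.902. CAPZA1, an actin-capping subunit, was detected on no mimic array and on all 3 control arrays, but its levels overlapped near the dimmest detected. They were 5.49, 5.43 and 5.05 on the mimic arrays and 5.44, 5.55 and 5.83 on the control arrays. The change of CAPZA1 was -0.28 ± 0.17 (limma adjusted p = 0.265). Without mimic replicate 1, mimic replicate 3, control replicate 2 or control replicate 3, 1 of the 3 falls in dynein and dynactin was left, and 2 without control replicate 1.

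DYNLT2B, a light chain of the dynein-2 motor that returns cargo down the cilium, rose most of all motor genes. It had 9.37, 9.28 and 9.27 on the mimic arrays against 8.07, 8.48 and 8.26 on the control arrays, a change of 1.04 ± 0.14, or 2.05-fold (limma adjusted p = 0.00163). Its second probe gave 0.97, and the gene passed the test in each of 19 alternative settings. The 4 dynein-2 chains proper did not pass the test. Their changes were 0.42 for the heavy chain DYNC2H1, 0.37 for DYNC2LI1, 0.22 for DYNC2I2 and -0.25 for DYNC2I1. DYNC2I1 was detected on 1 mimic array and on 3 control arrays. The dynein light chains shared with other complexes gave small differences, -0.06 for DYNLL1, -0.10 for DYNLL2, 0.24 for DYNLRB1, 0.25 for DYNLT3 and 0.27 for DYNLT1. DYNLRB1, a roadblock light chain, was read by 4 detected probes, whose changes lay between 0.24 and 0.35.

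Of the 20 motor genes that were not measured, 13 were detected on no array and 7 on 1 or 2. The undetected genes include the motors KIF13A and KIFC3, the mitotic genes KIF2B and KIF4B, the ciliary motors KIF19 and KIF9, the light chain KLC3 and the dynein-1 chain DYNC1LI1. The others were KIF12, KIF21B, DYNLRB2, DYNLT2 and DYNLT5. Besides KIF3A, the genes detected on 1 or 2 arrays were KIF6, KIF17, KIF25, KIF26A, KIF27 and DYNLT4. Of the measured members, 45 were detected on all 6 arrays and 5 on 3 to 5 arrays. The latter were KIF16B, KIF5A, KIF26B, KLC4 and DYNC2I1, all near the dimmest level that counted as detected. Among all measured members, 10 had 2 or more detected probes. All probes of a gene shared its call in 10 of 10, and they shared a sign in 8, the exceptions being KIF1B and KIF23. Only for DYNLT2B, KIF11, KIF3B and KLC1 was that shared call a rise or a fall, and in the others no probe was called. Every other member that passed the test had 1 detected probe.

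Proteins that work beside the mitotic motors were taken from a list of 24 spindle and midzone partners, of which 22 were measured. In this list 5 fell and 17 missed the threshold, with a median change of -0.34 and 20 changes below 0. All measured genes had 13.7% lower and 5172 of 10734 changes below 0. NUSAP1, which bundles spindle microtubules, had 9.88, 10.27 and 9.84 on the mimic arrays against 11.32, 11.14 and 11.32 on the control arrays, and fell by 1.26 ± 0.15 (limma adjusted p = 0.00105). PRC1, the midzone bundler that recruits KIF4A and KIF14, had 10.34, 10.71 and 10.09 on the mimic arrays against 11.44, 11.50 and 11.51 on the control arrays. It fell by 1.11 ± 0.17 (limma adjusted p = 0.00272). The furrow scaffold ANLN fell by 0.98 ± 0.14 and KNSTRN, a kinetochore and spindle protein, by 0.93 ± 0.15. RACGAP1, the partner of KIF23 in centralspindlin, completes the count, with a change of -0.71 ± 0.12 and a dimmer probe at -0.48 that was not called. CENPE, a mitotic kinesin outside the symbol rule, gave -0.42 ± 0.17 (limma adjusted p = 0.118). Without mimic replicate 2 the falls in this list numbered 10, and 5 without any other array. Mimic replicate 2 had the highest mimic level for 18 of the 22 partners.

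Among 21 proliferation markers, all measured, 6 fell, 1, TOP2A, rose and 14 did not pass the test. Their median change was -0.33, with 15 changes below 0 and 6 above. The shares over all measured genes were 13.7% lower and 12.7% higher, with 5172 of 10734 changes below 0. The call of TOP2A was lost on omission of any 1 array (limma adjusted p up to 0.142). Omission of 1 array left between 2 and 10 falls, the low value without control replicate 1 and the high value without mimic replicate 2, with 3 without any other array. The replication genes MCM6 and PCNA fell by 1.06 ± 0.14 and 1.18 ± 0.16 (limma adjusted p = 0.00134 and 0.00195). The part of these markers in the changes of the mitotic kinesins was not tested.

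Of 29 adaptors and regulators of motors 22 were measured: 3 fell, 1 rose and 18 did not pass the test, with a median change of -0.09. Among all measured genes 13.7% were lower and 12.7% higher, so the falls are near that share and the rises below it. PAFAH1B1, or LIS1, the regulator that holds dynein on microtubules, had 5.97, 6.44 and 5.48 on the mimic arrays against 8.09, 7.91 and 8.23 on the control arrays. It fell by 2.12 ± 0.23 (limma adjusted p = 7.26e-04) and was detected on 2 of the 3 mimic arrays. With no background correction the change of PAFAH1B1 was -1.12, still past the threshold. FYCO1, which links late endosomes and autophagosomes to kinesin, fell by 1.13 ± 0.21 (limma adjusted p = 0.00622), and by 0.58 with no background correction. SPAG9, or JIP4, a scaffold that binds kinesin-1 and dynactin, fell by 0.91 ± 0.13 (limma adjusted p = 0.00207). Its other probes gave -1.05 and -0.51, the last not called. NIN, or ninein, a centrosomal dynein adaptor, rose by 0.75 ± 0.12 (limma adjusted p = 0.00404), but its other probes gave 0.13 and 0.00, neither called, and the mean of its probes did not pass the test.

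Of 18 axonemal dynein genes, which drive motile cilia, 4 were measured. DNAL1 rose by 0.75 ± 0.13 (limma adjusted p = 0.00555) on its brighter probe, with 0.01 on the dimmer, and the others did not pass the test.

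**Figure D4:**
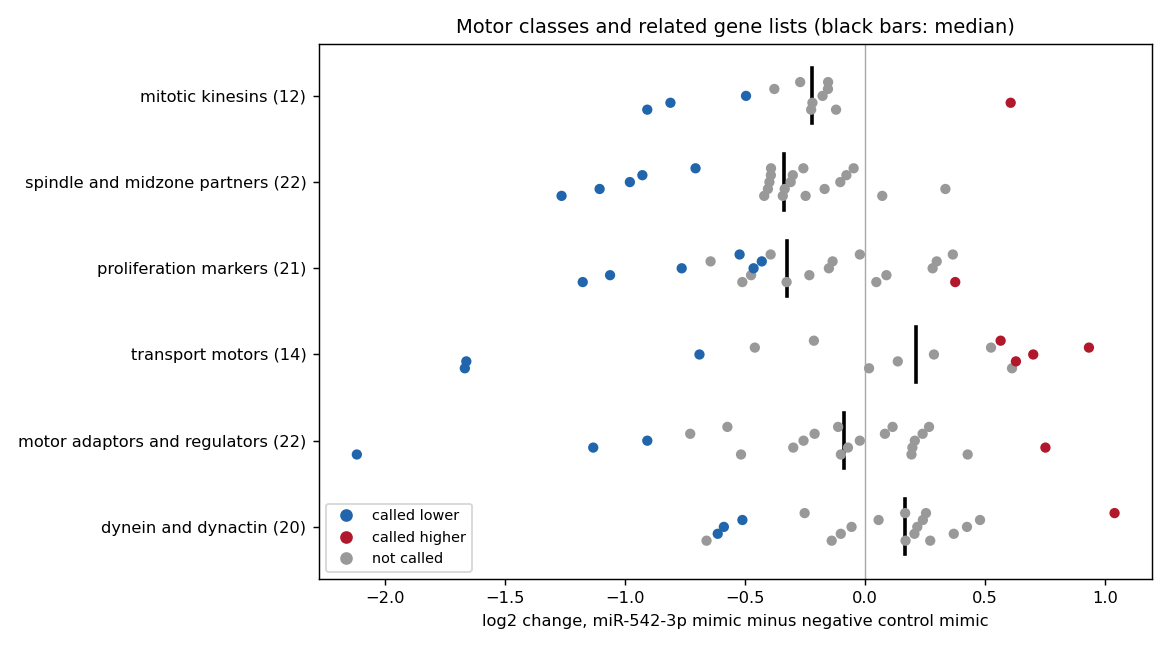
Each point is the log2 change of a gene, mimic minus control, for the motor classes and the related lists, with the median as a black bar. Medians lie below 0 for mitotic kinesins (-0.22), spindle partners (-0.34), proliferation markers (-0.33) and motor adaptors (-0.09). They lie above 0 for transport motors (0.21, with transport kinesins alone at 0.14) and for dynein and dynactin (0.17).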

How the data were processed

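Per the file headers, the authors deposited non-normalized intensities of 47323 probes on 6 arrays, each with a detection p-value. Scanner software, slide and any subtraction of background are not given in the sources used. The authors also deposited values on the log2 scale, used as an alternative. Probes were named through GEO's annotation of the array: 30113 had 1 gene, 8 several and 17202 none, and probes with several named no gene. All 70 members matched a RefSeq gene of GRCh38.p14.

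Intensities were background-corrected with nec in limma 3.58.1 (R 4.3.3), which infers the negative controls' mean and SD where only detection p-values are given, and an offset of 16. Quantile normalization and log2 followed. Probes detected (p under 0.05) on at least 3 of 6 arrays were kept, and the brightest detected probe stood for its gene. The 3 mimic and 3 control arrays were compared with lmFit and eBayes, with no covariate, over 14775 rows (10734 genes and 4041 probes without a single gene), with Benjamini-Hochberg adjustment over all rows. The fit was tested on simulated data. The number of arrays limits the precision, and since separate cultures are not stated, p-values cover only the spread among these 6 arrays, which may be technical.

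The members, classes and gene lists were chosen with earlier results of these data known, and no list was tested as a set. Named are all measured members by class, with values on every array for those that passed the test and for KIF11, KIF20A, KIF23 and KIF5B. KIF3A and DYNC1H1 were added after their values were seen. Of each other list, up to 4 genes with the smallest adjusted p are named, with CENPE, BIRC5 and CDKN1A in any case, and further genes only to complete a count or a complex. Figures were drawn with matplotlib 3.10.9. The alternatives were other background steps, normalizations, filters, probe rules, variance models, thresholds, the replicate number as a block, and the omission of each array in turn.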

Additional observations from a re-analysis of the deposited data

How the results depend on the processing

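KIF3B, KIF3C, KIF5B, KIF5C, KIFC1, KIF11 and DYNLT2B passed the test in each of 19 alternatives, and DYNC1I2 in each but the stricter thresholds. With no filter on dim probes KIF22, KIF1A, DCTN4, DYNC1LI2 and KIFC2 were lost. KIF22 was also lost with array medians set equal, and KIFC2 with cyclic loess. The 9 motor genes called lower were 5 with no filter on dim probes, 4 at an adjusted p under 0.01, 4 under limma's treat with a minimum change of 1.2-fold, and 5 to 11 with 1 array left out. The 7 motor genes called higher were 3 under each of the stricter thresholds and 4 to 7 with 1 array left out. The falls among motor adaptors (3) were 5 with no background correction, those among spindle and midzone partners (5) were 8 with array weights, those among proliferation markers (6) were 9 with array weights and 2 under the stricter thresholds, and those among dynein and dynactin genes (3) were 1 with no filter and 0 under the stricter thresholds. The median change of mitotic kinesins was -0.34 to -0.15 with 1 array left out. The median change of transport motors, 0.21, was 0.095 both with no background correction and from the deposited log2 values, 0.52 over genes detected on all 6 arrays, 0.054 with no filter, and 0.14 to 0.31 with 1 array left out. Over all measured genes the 2833 calls became 1430 at an adjusted p under 0.01, 1345 under treat, 1844 without control replicate 1 and 1879 without mimic replicate 1. Changes near 0 turned sign for DYNC2I1 (0.022 with array weights), KIF16B (-0.44 to 0.051 with 1 array left out, above 0 without control replicate 1), KIF1B (-0.071 to 0.25, below 0 without control replicate 2) and KLC4 (-0.0093 with array medians set equal, -0.091 with array weights, and -0.27 to 0.25 with 1 array left out, below 0 without mimic replicate 3 or control replicate 2), none of them called. The cause of these shifts was not tested. Deviations of same-numbered arrays from their group means correlated at 0.0243, 0.0811 and 0.103 over genes. The other pairs of a mimic and a control array lay between -0.129 and 0.0464. Mimic replicates 2 and 3 correlated best with the control array of the same number, and mimic replicate 1 with control replicate 3 (0.0393). The labels do not say what same-numbered arrays shared beyond the number. With the replicate number as a block, 9 motor genes were lower and 6 higher, with KIF1A (adjusted p 0.0609) and KIFC2 (0.0757) lost and DYNC1I1 (0.016) gained. The sizes of KIF3C, KIF5C, KIF1A, KIF7 and DCTN4 moved by over 1.5 times with no background correction. Some members outside the calls passed the test in other settings: KIF24 in 7, KIF23 in 5, KIF1C in 4, DYNC2H1 and DYNLT1 in 2 each, and KIF13B and DYNC1I1 in 1 each.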
